A study of Homo sapiens with 2 samples.

Results

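The genes described here are 10 genes of the T cell receptor complex and of early T cells, chosen by symbol from the 32738 genes of the count table: *CD3D*, *CD3E*, *CD3G*, *CD247*, *PTCRA*, *CD7*, *CD2*, *CD4*, *LCK* and *ZAP70*. Each symbol matched 1 gene, so all 10 were measured. The cells came from the human induced pluripotent stem cell line iPS11. CD34+ cells enriched for hemogenic endothelium, the endothelium that gives rise to blood, were kept for 5 days in medium for the endothelial-to-hematopoietic transition (EHT), on wells left uncoated or coated with VCAM1 (an adhesion molecule), DLL4 (a Notch ligand) or DLL4+VCAM1. For each of the 4 coating conditions the nonadherent cells of 3 wells were pooled and marked with a hashtag antibody, and all were captured in 1 single-cell library. The cells therefore represent 1 line, 1 pool of wells per condition and 1 capture, with no replicate. The hashtags are numbered 0252, 0253, 0254 and 0255, and which coating each number marks is not given in the sources used here, so they are compared by number only.

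The CD3 chains CD3D, CD3E and CD3G are the invariant parts of the T cell receptor on the cell surface, and CD247 is the zeta chain that carries most of its signalling motifs. PTCRA pairs with the receptor beta chain in immature thymocytes, and the kinases LCK and ZAP70 relay the signal. CD7 and CD2 are surface proteins of T and NK cells that also appear on early progenitors, and CD4 is a coreceptor of helper T cells that monocytes and macrophages carry as well.

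A hashtag was called for 8488 of 10836 barcodes, and 7550 of these cells had at most 36000 unique molecular identifiers (UMIs, counted RNA molecules), at most 6000 genes and at most 18% mitochondrial UMIs. They held 142110950 UMIs, with medians of 17621 to 18769.5 UMIs per cell in the 4 hashtags. Levels are UMIs summed over a group for each 1000000 UMIs of that group (CPM). Ranges in parentheses are exact 95% intervals. They cover counting error within this library only, so no p-value is given. Cells were called positive for SPINK2 or CD34, markers of progenitors, at 3 UMIs, for C1Q (*C1QA*, *C1QB* and *C1QC* summed, made by macrophages) and for ELANE (neutrophil elastase) at 10 UMIs, and for stroma (*COL1A1*, *COL1A2* and *COL3A1* summed) at 20 UMIs. These groups may overlap. Cells with 3 UMIs of *KLF1* (erythroid) or 10 UMIs of *ITGA2B* (megakaryocyte) were added after the data were seen.

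*CD3D*, *CD3E* and *CD3G* lie next to each other on chromosome 11 of hg19. *CD3E* runs from 118175445 to 118186890 on the plus strand, *CD3D* from 118209790 to 118213420 on the minus strand and *CD3G* from 118215059 to 118225876 on the plus strand. *CD3D* and *CD3G* are read away from each other, with 1638 bases between their first bases.

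*CD3D* was at 23.9 CPM (22.4 to 25.4) in hashtag 0252, 24.2 CPM (22.6 to 25.8) in 0253, 95.1 CPM (91.9 to 98.4) in 0254 and 136 CPM (132 to 141) in 0255. Over all cells the first pair did not differ beyond counting error (ratio of 0253 to 0252, 1.01, 0.924 to 1.11), and 0255 was above 0254 (1.43-fold, 1.37 to 1.502). The highest hashtag was 5.71-fold above the lowest (5.32 to 6.13). A *CD3D* UMI was found in 19.1%, 19.9%, 39.1% and 46.2% of cells in the same order. With each cell thinned to 5000 UMIs these shares were 7.43%, 7.32%, 22.1% and 30.5%. Cells with 10 or more *CD3D* UMIs numbered 13, 9, 90 and 128, or 0.609%, 0.451%, 4.87% and 8.15% of the hashtag.

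**Figure D1:**
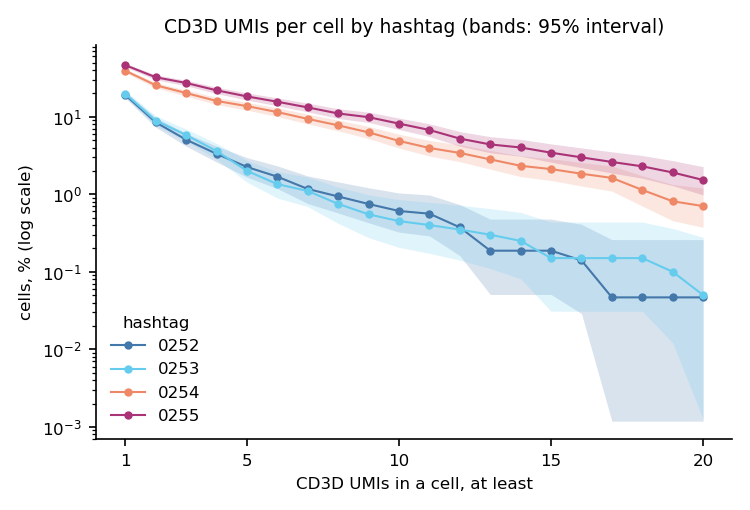
Percent of cells (y axis, log scale) with at least the number of *CD3D* UMIs on the x axis, for each hashtag. Bands are exact 95% intervals. The curves of 0254 and 0255 lie above those of 0252 and 0253 at each count from 1 to 20, and at 10 UMIs they stand at 4.87% and 8.15% against 0.609% and 0.451%.

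*CD3E* and *CD3G* were also highest in 0255 and next highest in 0254. *CD3E* was at 6.58 CPM (5.81 to 7.42) in 0252, 5.20 CPM (4.50 to 5.97) in 0253, 21.5 CPM (19.98 to 23.1) in 0254 and 27.5 CPM (25.6 to 29.4) in 0255, a 5.28-fold range (4.51 to 6.20). By summed UMIs 0253 was below 0252 (0.790, 0.654 to 0.953), an interval that does not cover the spread between cells. The shares of cells with a *CD3E* UMI, 8.75% (7.59 to 10.0%) in 0252 and 6.86% (5.79 to 8.06%) in 0253, had overlapping intervals. *CD3G* was at 3.96 CPM (3.37 to 4.62), 3.64 CPM (3.06 to 4.29), 19.9 CPM (18.5 to 21.5) and 34.1 CPM (32.0 to 36.3), a 9.37-fold range (7.84 to 11.3). For all 3 chains the intervals of 0254 and 0255 lay above those of 0252 and 0253. The kinase *LCK* was at 1.21 CPM (0.897 to 1.60), 0.832 CPM (0.569 to 1.17), 2.82 CPM (2.29 to 3.44) and 3.37 CPM (2.73 to 4.11), and its highest level was 4.05 times its lowest (2.69 to 6.24). The ratios 0255 to 0254 (1.19, 0.890 to 1.60) and 0253 to 0252 (0.686, 0.425 to 1.09) of *LCK* were within counting error.

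The other receptor chains and the kinase *ZAP70* did not share this pattern. *CD247* had 103 UMIs in all, and its 4 levels, from 0.634 to 0.832 CPM, had overlapping intervals (highest to lowest 1.31, 0.739 to 2.37). *PTCRA* had 54 UMIs, of which 18, 28, 2 and 6 fell in 0252, 0253, 0254 and 0255, and its level in 0253 was 12.6 times that in 0254 (3.19 to 109). *ZAP70*, with 42 UMIs, was between 0.210 and 0.490 CPM, and the range was within counting error (2.33, 0.876 to 7.21). At this depth no difference in *CD247* or *ZAP70* between hashtags was detectable over all cells of a hashtag.

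*CD7* was at 30.0 CPM (28.4 to 31.8), 25.9 CPM (24.4 to 27.6), 30.6 CPM (28.8 to 32.5) and 30.9 CPM (28.9 to 33.0), a 1.19-fold range (1.09 to 1.30) with 0253 lowest. Among the 736 cells with at most 10% mitochondrial UMIs this range was 2.59-fold (1.63 to 4.20). *CD2* was at 5.52, 4.13, 4.21 and 3.75 CPM, with 0252 highest (1.47-fold over 0255, 1.16 to 1.87). *CD4* ran against the CD3 chains. It was at 14.0 CPM (12.9 to 15.2) in 0252, 15.1 CPM (13.9 to 16.4) in 0253, 11.9 CPM (10.8 to 13.1) in 0254 and 9.26 CPM (8.17 to 10.4) in 0255, so its lowest hashtag was the one where *CD3D* was highest.

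**Figure D2:**
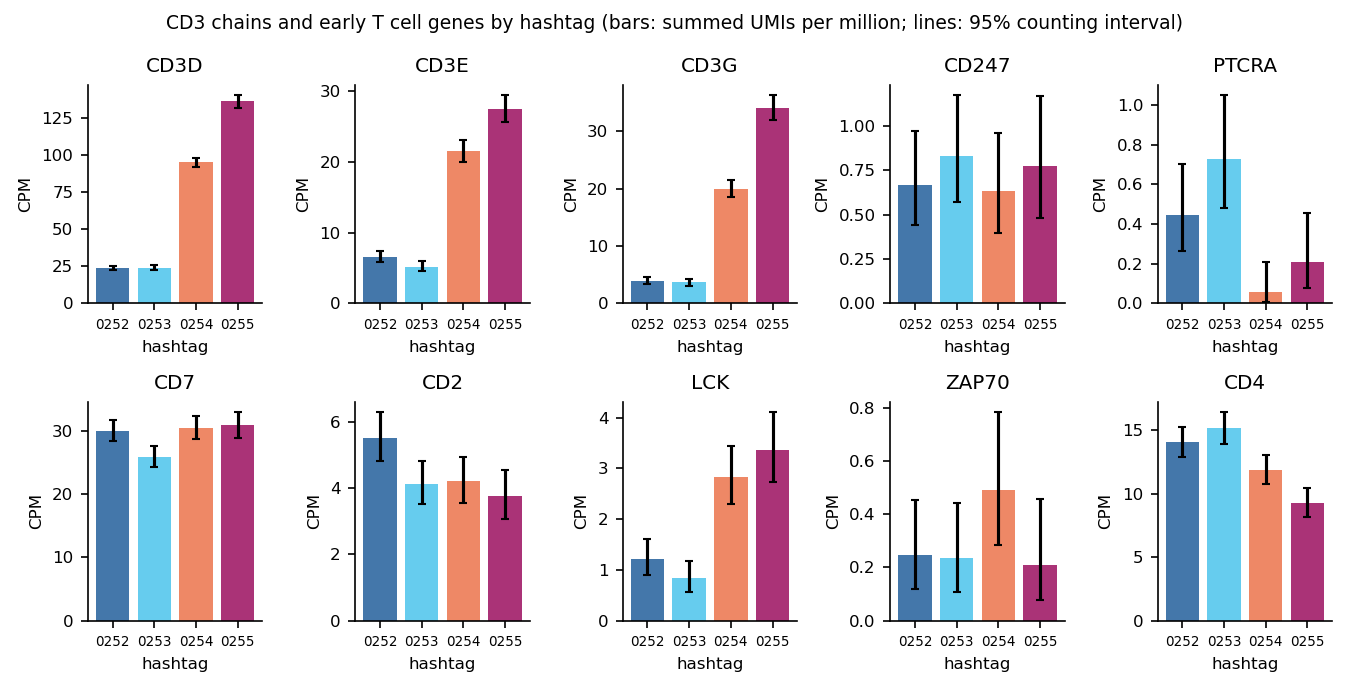
Level of each of the 10 genes (y axis, CPM, each panel with its own scale from 0) in the 4 hashtags (x axis). Bars are levels and lines are exact 95% counting intervals. *CD3D*, *CD3E*, *CD3G* and *LCK* are higher in 0254 and 0255, *CD4* is lowest in 0255, and *CD7*, taken over all cells of a hashtag, stays between 25.9 and 30.9 CPM.

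Of the 8 genes with at least 100 UMIs, 5 differed at least 1.5-fold between the highest and the lowest hashtag (*CD3D*, *CD3E*, *CD3G*, *LCK* and *CD4*), against 17.0% of the 13489 genes with that many UMIs. The median ratio over those genes was 1.17. With 0255 as the highest hashtag there were 4 of the 8 (*CD3D*, *CD3E*, *CD3G* and *LCK*), against 5.88% of all genes tested.

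*CD3D* was highest in SPINK2-positive cells. These were 1182 cells, 13.9%, 10.2%, 19.2% and 20.9% of the cells of 0252, 0253, 0254 and 0255, and they had 159 CPM (154 to 164). The 2607 CD34-positive cells had 76.0 CPM (73.7 to 78.3), and 758 cells were positive for both. The 645 C1Q-positive cells had 26.4 CPM (23.2 to 29.8), 6.02-fold (5.30 to 6.86) below the SPINK2-positive cells. The 71 ELANE-positive cells, of which 38, 25, 5 and 3 were in 0252, 0253, 0254 and 0255, had 9.14 CPM (4.18 to 17.4) from 9 UMIs, no more than 1 in any cell. The 63 stromal cells, of which 8, 6, 14 and 35 were in these hashtags, had 5.26 CPM (1.93 to 11.4) from 6 UMIs, also at most 1 per cell. In 196 KLF1-positive and 176 ITGA2B-positive cells the levels were 9.01 CPM (6.38 to 12.4) and 2.05 CPM (0.939 to 3.90).

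The share of cells with a *CD3D* UMI was 63.7% (60.9 to 66.5%) in SPINK2-positive cells with a median depth of 21473.5 UMIs, and 11.8% (9.40 to 14.5%) in C1Q-positive cells with a median of 13496. ELANE-positive cells (12.7%, 5.96 to 22.7%, median 11859 UMIs) and stromal cells (9.52%, 3.58 to 19.6%, median 18636 UMIs) were assumed to lack the gene. What part of their shares came from free RNA was not tested. The share was 11.7% in KLF1-positive cells (median 20477.5 UMIs) and 2.84% in ITGA2B-positive cells (median 25247.5 UMIs). The pooled share of C1Q-positive cells was within the intervals of ELANE-positive, stromal and KLF1-positive cells (7.59 to 17.1% in the last). Against these groups it does not by itself show expression. It was above the interval of ITGA2B-positive cells (0.929 to 6.505%), of which 83, 63, 23 and 7 were in 0252, 0253, 0254 and 0255. Which group gives the right background was not tested. The pooled level of C1Q-positive cells in CPM was 2.88-fold (1.496 to 6.38) above that of ELANE-positive cells, but these 2 groups differ in hashtags. In 0252 and 0253, C1Q cells were at 5.31 CPM (2.90 to 8.91) and 11.1 CPM (7.46 to 15.8). A single C1Q cell held 18 of the 30 UMIs in 0253. ELANE cells were at 10.0 CPM (3.25 to 23.3) and 8.89 CPM (1.83 to 26.0) in 0252 and 0253, with overlapping intervals. Hashtags 0254 and 0255 held 5 and 3 ELANE-positive cells. By hashtag the share of the 643 C1Q-positive cells outside the stromal group was 4.71% (2.18 to 8.76%) in 0252, 5.88% (2.86 to 10.6%) in 0253, 19.6% (13.9 to 26.5%) in 0254 and 21.1% (13.98 to 29.7%) in 0255. Thinned to 5000 UMIs per cell, the pooled shares were 38.7% in SPINK2-positive, 6.23% in C1Q-positive, 4.29% in ELANE-positive and 3.17% in stromal cells.

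Single C1Q-positive cells could hold many *CD3D* UMIs. None of the 71 ELANE-positive and 63 stromal cells did, which allows up to 4.23% and 4.76% of them to do so. Of the ELANE-positive cells 5 and 3 were in 0254 and 0255, and of the stromal cells 14 and 35. Of the 76 C1Q-positive cells with *CD3D*, 43 had 1 UMI, and 15 had 5 or more, with a highest count of 23. These 15 cells held 160 of the 254 *CD3D* UMIs of the group, together with 51 *CD3G* and 11 *CD3E* UMIs. They carried hashtags 0254 (9 cells), 0255 (5 cells) and 0253 (1 cell), and 3 of them had a *SPINK2* UMI. The median depth of C1Q-positive cells with *CD3D* was 16239 UMIs, against 13137 UMIs without it, and *SPINK2* was found in 13.2% and 4.92% of them. Scrublet, a caller of simulated doublets, marked 5 of the 76 (6.58%, 2.17 to 14.7%) and 12 of the 569 without *CD3D* (2.11%, 1.09 to 3.65%). It marked 27.6% of the barcodes that hashtags called doublets, and the part of droplets with more than 1 cell in the *CD3D* of C1Q-positive cells was not tested beyond these values.

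*CD3E* and *LCK* were also highest in SPINK2-positive cells, at 34.4 CPM (32.2 to 36.8) and 5.31 CPM (4.46 to 6.28), against 6.33 CPM (4.84 to 8.13) and 0.519 CPM (0.169 to 1.21) in C1Q-positive cells. *CD3G* was at 23.9 CPM (22.1 to 25.9) in SPINK2-positive, 7.52 CPM (6.82 to 8.26) in CD34-positive and 12.1 CPM (10.0 to 14.6) in C1Q-positive cells. The difference between SPINK2-positive and C1Q-positive cells was thus 5.44-fold (4.19 to 7.17) for *CD3E* and 1.97-fold (1.62 to 2.42) for *CD3G*, with intervals that did not overlap. *CD3E*, *CD3G* and *LCK* had no UMI in the ELANE-positive cells, which allows up to 4.23% of these cells to have one.

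For each 100 *CD3D* UMIs there were 15.1 *CD3G* UMIs (13.8 to 16.4) in SPINK2-positive, 9.89 (8.94 to 10.9) in CD34-positive and 46.1 (36.7 to 57.6) in C1Q-positive cells, and 33.9 (31.6 to 36.4) in cells positive for none of the 5 markers. The same figure for *CD3E* was 21.7 (20.2 to 23.3), 17.1 (15.8 to 18.5), 24.0 (17.9 to 31.9) and 24.5 (22.6 to 26.6). Across these 4 groups *CD3G* thus ranged from 9.89 to 46.1 for each 100 of *CD3D*, and *CD3E* from 17.1 to 24.5. Within SPINK2-positive cells with no C1Q, ELANE or stromal call it also varied by hashtag, with 7.39 (5.12 to 10.4), 5.59 (3.22 to 9.10), 16.2 (14.1 to 18.5) and 17.9 (15.8 to 20.2) *CD3G* UMIs for each 100 of *CD3D* in 0252, 0253, 0254 and 0255. In the remaining CD34 cells it was between 10.1 and 12.5 in the 4 hashtags, with overlapping intervals. In cells with none of the markers it was 36.6 (28.2 to 47.2), 24.7 (19.1 to 31.6), 29.96 (26.3 to 34.1) and 38.3 (34.7 to 42.2), so the intervals of 0252 and 0255 overlapped there. A single cell held 20 of the 85 *CD3G* UMIs of this group in 0252, and another held 23 of the 81 in 0253. The intervals do not cover this spread between cells.

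*CD7*, *CD2*, *CD4* and *PTCRA* were highest in other cells. *CD7* was at 68.9 CPM (61.4 to 77.1) in ITGA2B-positive and 62.1 CPM (54.8 to 70.1) in KLF1-positive cells, 3.30-fold (2.86 to 3.81) and 2.97-fold (2.56 to 3.45) above the 20.9 CPM (19.2 to 22.7) of SPINK2-positive cells. *CD2* reached 13.8 CPM (10.4 to 17.8) in KLF1-positive cells against 4.49 CPM (3.71 to 5.39) in SPINK2-positive cells. *CD4* was highest in C1Q-positive cells, at 32.4 CPM (28.9 to 36.2), and lowest in SPINK2-positive cells, at 4.11 CPM (3.36 to 4.97), a 7.89-fold difference (6.31 to 9.93). ITGA2B-positive cells had 21.2 CPM (17.1 to 26.0) of *CD4*, with a UMI in 38.6% of them against 35.2% of C1Q-positive cells. *PTCRA* had 27 of its 54 UMIs in the 176 ITGA2B-positive cells (6.16 CPM, 4.06 to 8.96) and 3 in the SPINK2-positive cells. The ITGA2B-positive cells numbered 83, 63, 23 and 7 in 0252, 0253, 0254 and 0255, and their part in the hashtag difference of *PTCRA* was not tested. *CD247* had no UMI in C1Q-positive cells, which allows up to 0.465% of them to have one, and was at 0.930 CPM (0.596 to 1.38) in SPINK2-positive cells. Its level in CD34-positive cells was 0.961 CPM (0.724 to 1.25). *ZAP70* was at 0.310 CPM (0.134 to 0.611) in SPINK2-positive and 0.913 CPM (0.249 to 2.34) in ITGA2B-positive cells, with overlapping intervals.

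**Figure D3:**
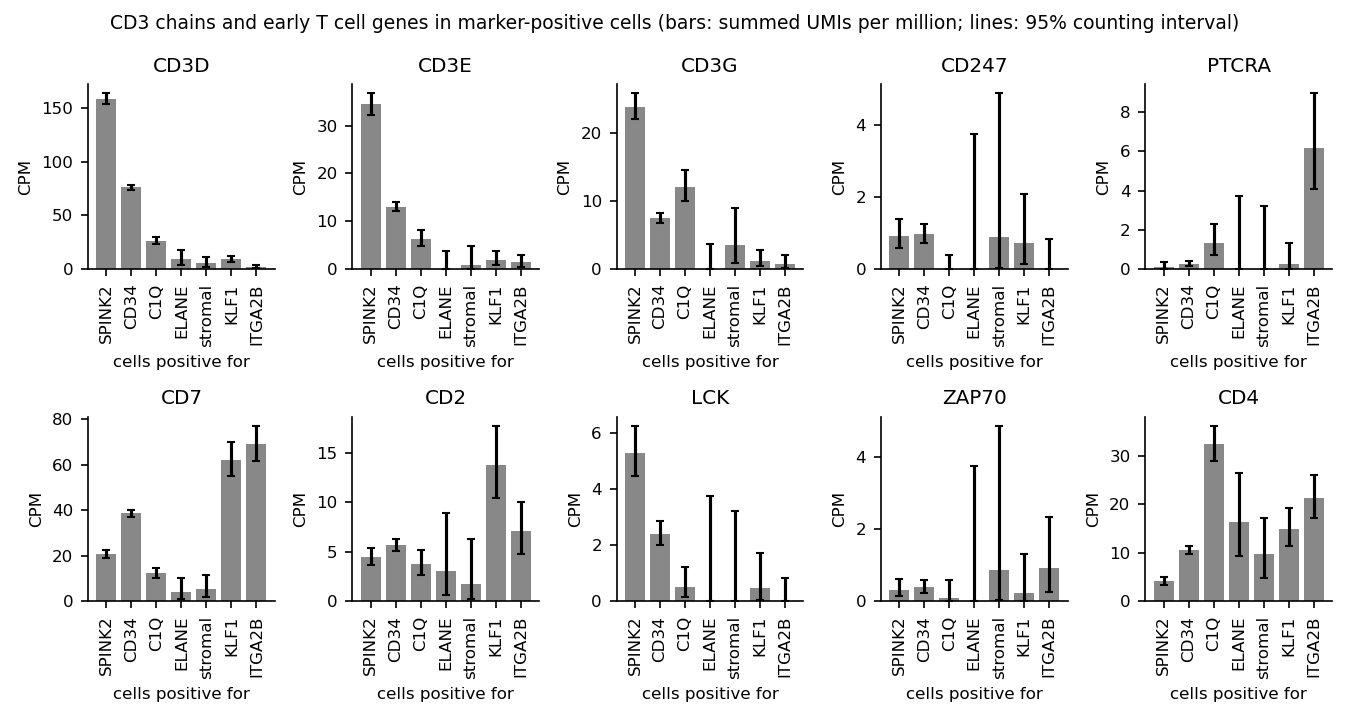
Level of each gene (y axis, CPM, own scale from 0 in each panel) in cells positive for a marker (x axis), with exact 95% counting intervals as lines. The CD3 chains and *LCK* are highest in SPINK2-positive cells, *CD4* in C1Q-positive cells, and *CD7*, *CD2* and *PTCRA* in KLF1-positive or ITGA2B-positive cells.

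Between SPINK2-positive and C1Q-positive cells, 7 of the 10 genes had at least 100 UMIs. Of these, 5 were at least 1.5-fold higher in SPINK2-positive cells (*CD3D*, *CD3E*, *CD3G*, *CD7* and *LCK*), where 23.8% of 10901 genes were. The minimum was on the UMIs of both groups summed. *LCK* reached it through the SPINK2-positive cells, with 137 UMIs there and 5 in C1Q-positive cells, and *CD3E* had 889 and 61. With *CD4*, which was higher in C1Q-positive cells, 6 of the 7 differed 1.5-fold in either direction, against 41.7% of these genes.

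The hashtags differed in their cells, so *CD3D* was also compared within groups that share no cell, each cell being placed in the first of stromal, C1Q, ELANE, SPINK2 and CD34 for which it was positive. In the 1176 SPINK2 cells *CD3D* was at 75.3 CPM (68.8 to 82.3) in 0252, 65.2 CPM (58.0 to 72.9) in 0253, 199.7 CPM (189.8 to 209.99) in 0254 and 254 CPM (243 to 267) in 0255, a range of 3.90-fold (3.45 to 4.42). In the 1842 remaining CD34 cells it was at 15.9, 23.6, 72.3 and 96.5 CPM (6.07-fold, 5.19 to 7.12). In the 3755 cells with none of the markers it was at 14.2, 16.9, 66.1 and 109 CPM (7.72-fold, 6.72 to 8.91). In the 643 C1Q cells it was at 5.31, 11.1, 52.5 and 45.4 CPM, where the last pair did not differ beyond counting error (ratio of 0255 to 0254, 0.864, 0.644 to 1.15). A single cell held 18 of the 30 *CD3D* UMIs of the C1Q cells in 0253. In each of these 4 groups 0254 and 0255 were above 0252 and 0253. The ratio of 0253 to 0252 was 0.865 (0.747 to 1.001) in SPINK2 cells and 1.48 (1.24 to 1.78) in CD34 cells. It was 1.19 (1.007 to 1.42) in cells with none of the markers and 2.08 (1.07 to 4.25) in C1Q cells.

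**Figure D4:**
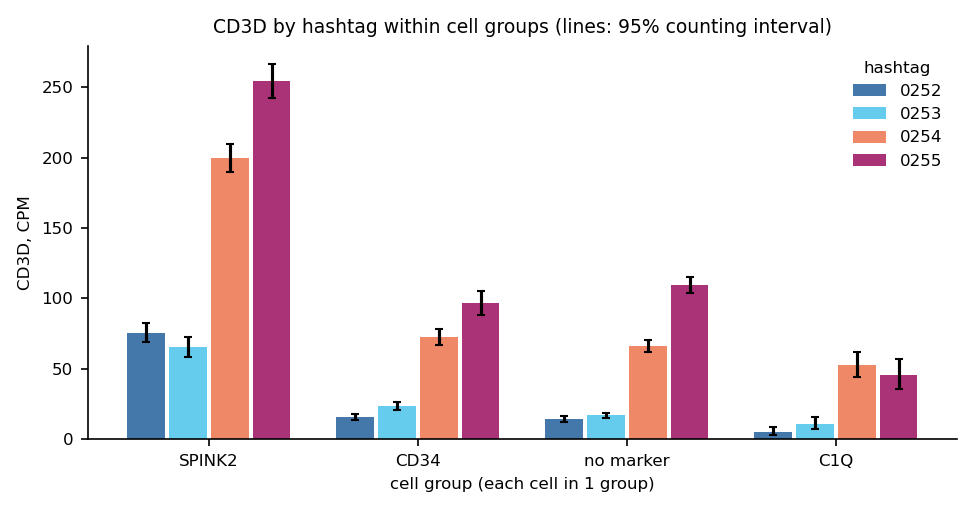
*CD3D* (y axis, CPM) by hashtag within 4 groups that share no cell (x axis); lines are exact 95% counting intervals. Hashtags 0254 and 0255 stand above 0252 and 0253 in every group shown, and the highest level is 254 CPM in SPINK2 cells of 0255.

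In the SPINK2 cells *CD3E* was at 19.2, 12.6, 43.2 and 53.7 CPM and *CD3G* at 5.57, 3.64, 32.2 and 45.5 CPM in 0252, 0253, 0254 and 0255. *CD7* was at 16.7 CPM (13.7 to 20.2), 15.0 CPM (11.7 to 19.0), 21.1 CPM (17.9 to 24.6) and 28.6 CPM (24.8 to 32.9) in them, a 1.91-fold range (1.45 to 2.54), while in CD34 cells it was highest in 0252 at 49.4 CPM and lowest in 0255 at 39.5 CPM (1.25-fold, 1.07 to 1.46). In cells with none of the markers *CD7* was at 21.9, 18.4, 31.4 and 31.9 CPM in 0252, 0253, 0254 and 0255. The range there was 1.73-fold (1.501 to 1.996), and the intervals of 0254 and 0255 lay above those of 0252 and 0253. In C1Q cells *CD7* was highest in 0252 at 15.2 CPM and lowest in 0253 at 8.84 CPM (1.71-fold, 1.009 to 2.97). *CD4* was between 3.17 and 4.79 CPM in the SPINK2 cells, within counting error (1.51-fold, 0.849 to 2.74). All 7 genes with at least 100 UMIs in these cells had a ratio of 1.5 or more between hashtags, against 14.7% of 9993 genes, and for 6 of them (all but *CD4*) 0255 was highest, against 4.41%. *CD4*, *CD2* and *LCK* were near the minimum, with 105, 114 and 136 UMIs. Of these UMIs, 31 (0252), 39 (0255) and 52 (0255) were in the hashtag where the gene was highest, which helped each reach the minimum. The ratios of *CD2* (2.91, 1.39 to 6.83), *LCK* (2.05, 1.17 to 3.79), *CD7* and *CD4* had intervals that reached below 1.5. Those of *CD3D*, *CD3E* and *CD3G* did not.

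SPINK2 cells held 44.9% of the 9084 *CD3D* UMIs, cells with none of the markers 33.9%, CD34 cells 18.2%, C1Q cells 2.80%, ELANE cells 0.0991% and stromal cells 0.0661%. Of the 240 cells with 10 or more *CD3D* UMIs, 131 were SPINK2-positive, 118 CD34-positive and 6 C1Q-positive, none was ELANE-positive, stromal, KLF1-positive or ITGA2B-positive, and 59 had no *SPINK2* UMI. High *CD3D* was therefore found in, but not limited to, cells with *SPINK2*.

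Cells with 5 or more *CD3D* UMIs were set side by side by their *SPINK2* count. There were 307 with 3 or more *SPINK2* UMIs and 162 with none, and their *CD3D* levels were 478 and 524 CPM. Their median *CD3D* counts were 9 and 8, at median depths of 21280 and 18020.5 UMIs. Both groups were chosen by their *CD3D* count, so these *CD3D* levels depend on that limit and on depth. *CD3G* was at 63.2 CPM in the first and 142 CPM in the second, or 13.2 (11.9 to 14.7) and 27.1 (24.3 to 30.2) UMIs for each 100 of *CD3D*. *CD3E* was at 72.5 CPM (66.2 to 79.3) and 68.3 CPM (59.2 to 78.3), with overlapping intervals. Of the 162 cells without *SPINK2*, 12 were C1Q-positive. The 159 cells with 1 or 2 *SPINK2* UMIs had 18.7 (16.3 to 21.3) *CD3G* UMIs for each 100 of *CD3D*. Hashtags 0252, 0253, 0254 and 0255 gave 31, 19, 123 and 134 of the 307 cells, and 6, 6, 59 and 91 of the 162. The part of the hashtags in these differences was not tested.

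*CD3D* often came with another CD3 chain, but in most positive cells no other was counted. Of 2253 cells with a *CD3D* UMI, 1255 (55.7%, 53.6 to 57.8%) had no UMI of *CD3E*, *CD3G*, *CD247* or *PTCRA*, and 661 (29.3%) had none of the other 9 genes. *CD3E* was found in 32.1% (30.2 to 34.1%) of them against 6.21% (5.58 to 6.89%) of the 5297 cells without *CD3D*. *CD3G* was found in 25.4% (23.6 to 27.2%) against 2.96% (2.52 to 3.46%), and *LCK* in 7.50% (6.45 to 8.67%) against 1.57% (1.25 to 1.94%). *CD7* differed less, with 35.3% (33.3 to 37.3%) against 28.7% (27.5 to 29.9%), and *CD2* was at 6.21% and 6.97% with overlapping intervals. *CD4* went the other way, with 12.0% (10.7 to 13.4%) against 22.4% (21.3 to 23.6%), and *PTCRA* was found in 4 and 32 cells. The cells with *CD3D* were deeper, and after thinning to 5000 UMIs *CD3E* was found in 18.5% against 3.05%, *CD3G* in 18.97% against 2.02%, *LCK* in 3.64% against 0.444% and *CD7* in 15.8% against 11.9%. In CD34-positive cells the *CD7* order was reversed, at 38.6% (35.6 to 41.7%) with *CD3D* and 46.7% (44.2 to 49.1%) without. Thinned, these were 15.7% and 17.8%, with overlapping intervals. In 0252 *CD7* was found in 30.7% of cells with *CD3D* and 30.7% without. The shares were 30.7% and 26.8% in 0253 and 37.3% and 31.05% in 0254. The intervals overlapped in each of these hashtags. In 0255 the shares were 38.3% (34.7 to 41.9%) and 24.97% (22.1 to 28.03%).

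The share of cells with *CD3D* alone depended on the count of *CD3D*. Without *CD3E*, *CD3G*, *CD247* and *PTCRA* were 77.0% of the 917 cells with 1 *CD3D* UMI, 59.5% of the 311 with 2, 51.1% of the 397 with 3 to 4, 33.5% of the 388 with 5 to 9 and 12.9% (8.95 to 17.8%) of the 240 with 10 or more. At 10 or more UMIs, *CD3E* was found in 72.9% (66.8 to 78.4%) of cells, *CD3G* in 68.8% (62.5 to 74.6%), *CD7* in 48.8% (42.3 to 55.3%) and *LCK* in 16.2% (11.8 to 21.5%). *CD247* was found in 2.50% (0.923 to 5.36%), *ZAP70* in 0.833% and *CD2* in 6.67%, and *PTCRA* in none of these 240 cells. *CD4* fell from 22.4% of cells without *CD3D* to 8.33% of these. The median depth was 17613 UMIs in cells without *CD3D* and between 19519 and 20807 UMIs in the groups with it.

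**Figure D5:**
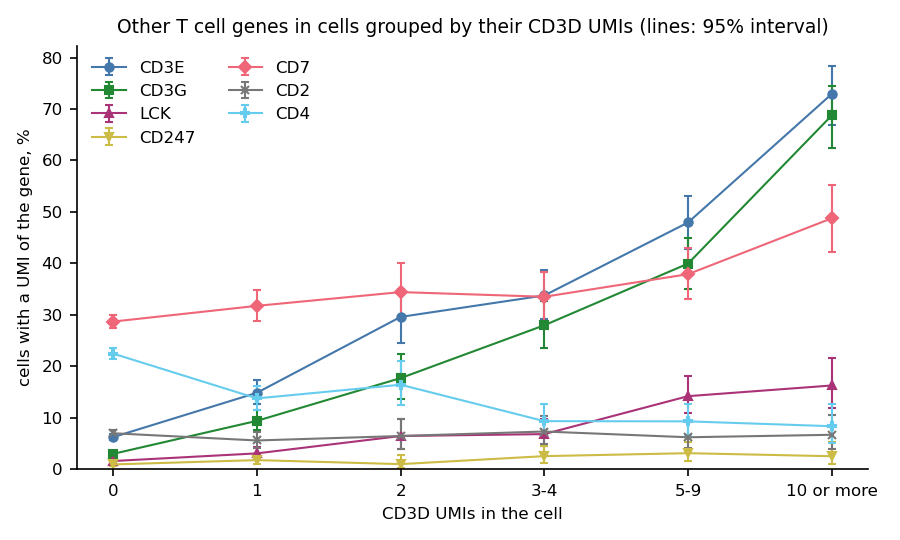
Percent of cells with a UMI of 7 other genes (y axis) in cells grouped by their *CD3D* UMIs (x axis), with exact 95% intervals as lines. *CD3E* and *CD3G* reach 72.9% and 68.8% at 10 or more *CD3D* UMIs, *CD7* and *LCK* reach 48.8% and 16.2%, *CD4* goes down, and *CD2* and *CD247* stay low.

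Cells alone in *CD3D* made up 68.3% and 75.3% of the *CD3D*-positive cells of 0252 and 0253, and 46.7% and 46.8% of those of 0254 and 0255. The hashtags also differed in *CD3D* counts, on which this share depends. Cells with 1 *CD3D* UMI were 226 of 407 positive cells in 0252, 219 of 397 in 0253, 253 of 723 in 0254 and 219 of 726 in 0255. The hashtag difference at equal *CD3D* counts was not tested. *CD3D*, *CD3E* and *CD3G* were counted together in 324 cells (4.29%, 3.85 to 4.77%), and these were 0.843%, 0.802%, 6.55% and 10.8% of cells in 0252, 0253, 0254 and 0255. Of the 324, 146 were SPINK2-positive, 118 CD34-positive, 9 C1Q-positive and 126 positive for none of the markers, while none was ELANE-positive, stromal, KLF1-positive or ITGA2B-positive. *CD7* was also counted in 152 of them, *LCK* in 49 and *CD247* in 9, and no cell held *CD3D*, *CD3E*, *CD3G*, *CD247*, *LCK* and *ZAP70* together.

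Within SPINK2-positive cells, 46.2% (42.6 to 49.9%) of the 753 with *CD3D* had *CD3E*, against 16.8% (13.4 to 20.7%) of the 429 without, at median depths of 21621 and 21335 UMIs. *CD3G* was found in 30.5% (27.3 to 34.0%) and 3.26% (1.80 to 5.41%). *CD7* was found in 33.1% (29.7 to 36.6%) and 21.2% (17.4 to 25.4%), and *LCK* in 12.4% (10.1 to 14.9%) and 6.99% (4.77 to 9.83%). *CD4* was found in 7.97% (6.14 to 10.1%) of SPINK2-positive cells with *CD3D* and 9.32% (6.74 to 12.5%) of those without, with overlapping intervals. In CD34-positive cells its shares were 10.7% (8.80 to 12.7%) and 23.9% (21.9 to 26.1%). In the 76 C1Q-positive cells with *CD3D*, *CD3G* was found in 22.4% (13.6 to 33.4%), *CD4* in 38.2% (27.2 to 50.0%) and *LCK* in 2 cells. Of the 569 C1Q-positive cells without *CD3D*, 34.8% (30.9 to 38.9%) had *CD4*, so these intervals overlapped too.

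The 5 genes whose level followed *CD3D* most closely over the 7550 cells, by Pearson's r of the log of UMIs per 10000, were *CD3G* (0.52), *CD3E* (0.49), the transcription factor *RUNX3* (0.39), *SPINK2* (0.37) and *C2orf82* (0.35), out of 10863 genes found in at least 5% of cells. Cells share the library and differ in depth, so r is a description. *CD7* stood at rank 394 with r of 0.095, and *CD4* at rank 10704 with r of -0.12. Among SPINK2-positive cells *CD7* was at rank 26 of 10883 genes (0.24). By hashtag *CD7* was at rank 9505 (-0.038) in 0252, 3658 (0.021) in 0253, 1433 (0.064) in 0254 and 45 (0.22) in 0255. Within single hashtags *SPINK2* (0.38 and 0.33) and *CD3E* (0.31 and 0.31) came first in 0252 and 0253, where *CD3G* was in under 5% of cells and was not ranked, and *CD3G* (0.499 and 0.57) and *CD3E* (0.48 and 0.51) came first in 0254 and 0255. The genes most like *CD7* were *DLK1* (0.31), *CKB* (0.31) and *ITGA2B* (0.29), and those most like *CD4* were the myeloid genes *TYROBP* (0.27) and *FCER1G* (0.24).

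Genes of 5 further lists were described in the same way. In the list of the T cell receptor and its signalling, 14 of 20 genes were among the genes of the table, and the constant genes *TRAC*, *TRBC1*, *TRBC2*, *TRDC*, *TRGC1* and *TRGC2* were not. Of the 9 with at least 100 UMIs, 5 passed 1.5-fold between hashtags, against 17.0% of all genes tested, and the median ratio was 1.52. *LAT*, *TXK*, *GRAP2* and *SYK* were highest in 0252, and 1 of the 5, *SKAP1*, was highest in 0255, against 5.88% of all genes. *LAT*, an adaptor that T cells share with megakaryocytes, was at 296 CPM in ITGA2B-positive and 11.3 CPM in SPINK2-positive cells, and was at 71.1 CPM in 0252 and 36.1 CPM in 0255. In the list of T cell surface and recombination genes, *RAG2* and *DNTT*, which cut and extend receptor gene ends, had no UMI, which allows up to 0.0397% of cells to have one. *CD5* had 6 UMIs and *CD8A* had 1, and neither was found in the 324 cells with *CD3D*, *CD3E* and *CD3G*. *RAG1* was found in 5 of the 324 and *CD28* in 2. Of the 5 genes of this list with at least 100 UMIs, 4 passed 1.5-fold, against 17.0% of all genes tested (median ratio 2.67). *CD6* and *IL7R* were highest in 0253 and *CD1A* and *CD1E* in 0255, and *CD1E* and *IL7R* were highest in C1Q-positive cells, at 53.3 and 41.2 CPM.

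In the list of T lineage factors and Notch genes all 13 had at least 100 UMIs and 10 passed 1.5-fold, each with 0255 highest (median ratio 2.03), against 17.0% of all genes tested past 1.5-fold and 5.88% with 0255 highest. *BCL11B*, a factor of T cell commitment, was at 0.173, 0.104, 0.864 and 2.42 CPM in 0252, 0253, 0254 and 0255, from 110 UMIs, and was found in 22 of the 324 cells with the 3 CD3 chains. It reached the minimum of 100 UMIs only with those of 0255, the hashtag where it was highest. The Notch targets *DTX1* (0.520, 0.884, 2.42 and 7.82 CPM) and *HES4* (4.73, 4.21, 15.9 and 28.9 CPM) and *RUNX3* (68.8, 70.7, 142 and 178 CPM) were also higher in 0254 and 0255. *TCF7*, *LEF1* and *NOTCH1* did not pass, with ratios of 1.21, 1.42 and 1.18. A *DTX1* UMI was found in 7.99% of cells with *CD3D* and 1.25% of those without, and *RUNX3* in 80.3% and 51.6%.

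Of the NK and innate lymphoid list, 8 of 14 genes had at least 100 UMIs, 6 passed 1.5-fold, against 17.0% of all genes tested (median ratio 3.85), and *EOMES* had no UMI. *GNLY*, *KLRB1*, *NCAM1* and *GZMA* were highest in 0255, *PRF1* in 0254 and *GZMB* in 0253. *GZMB*, a granzyme, was at 0.173, 2.89, 1.56 and 2.87 CPM and *PRF1*, perforin, at 0.965, 0.312, 1.498 and 1.33 CPM in 0252, 0253, 0254 and 0255. *PRF1* reached the minimum of 100 UMIs only with those of 0254, the hashtag where it was highest. *KLRB1* was at 0.717, 0.286, 4.47 and 5.26 CPM and *GZMA*, another granzyme, at 1.34, 0.936, 2.30 and 4.24 CPM in 0252, 0253, 0254 and 0255, and *GZMA* was found in 6.57% of cells with *CD3D* and 0.831% without. *NKG7*, an NK granule gene, did not pass (1.16) and was highest in C1Q-positive cells at 219 CPM. Of the B cell list, 8 of 9 genes were in the table, and 2 of the 3 with at least 100 UMIs passed, against 17.0% of all genes tested (median ratio 1.84), *CD79A* with 0254 and *IGLL1* with 0255 highest. *IGLL1*, a part of the surrogate light chain, was at 62.5, 63.4, 137 and 174 CPM and was found in 54.2% of cells with *CD3D* and 26.2% without, while *MS4A1* had 3 UMIs.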

How the data were processed

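One RNA library and its matching hashtag library were used, from the nonadherent cells of 4 pooled coating conditions. The deposited matrix holds raw UMI counts per gene and barcode, made by the authors with Cell Ranger 6.0.1 on hg19 per the submitters' processing notes, and the hashtag call of each barcode was taken as deposited. Doublets and negatives by hashtag were left out, and Scrublet (scanpy 1.11.5, expected rate 6%) was an alternative. Python 3.11.15 with scipy 1.17.1 was used. Levels are summed counts for each 1000000 UMIs, with exact Poisson intervals; shares have exact Clopper-Pearson intervals; ratios have exact intervals conditional on the summed counts. A count of 0 was given a limit of 3 counts. No test between hashtags was possible with 1 library, and calls rest on a ratio of 1.5 in genes with at least 100 UMIs. Thinning drew 5000 UMIs from each cell and left out 68 shallower cells. The functions were tested on simulated data. Genes named are the 10 genes, the listed genes with at least 100 UMIs or at 0 or near it, the receptor constant genes, and the 5 genes with the highest r with *CD3D*; the counts of *RAG1*, *CD28*, *CD5*, *CD8A* and *MS4A1* were picked after their values were seen. The genes, lists and groups were chosen with earlier results of these data known. Positions are GENCODE v44 lifted to GRCh37. Droplet counts include free RNA, and UMIs of 3' reads do not separate isoforms. Some items are not reported here.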

Additional observations from a re-analysis of the deposited data

Results flagged for a closer look

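Barcodes for which no hashtag was called were used in no comparison. Of the 809 that met the limits on UMIs, genes and mitochondrial UMIs, 27.3% (24.3 to 30.5%) had a *CD3D* UMI at a median depth of 15601 UMIs, against 9.52% of stromal and 12.7% of ELANE-positive cells and 29.8% of all cells with a hashtag, and the level was 57.2 CPM (53.1 to 61.5). *CD3D*, *CD3E* and *CD3G* were counted together in 17 of them (2.10%, 1.23 to 3.34%).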

How the results depend on the processing

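In each alternative run *CD3D* stayed higher in SPINK2-positive and *CD4* in C1Q-positive cells, while 20 values moved beyond their counting interval or by over 1.5 times and 24 did not. A mitochondrial limit of 10% left 736 cells and gave a *CD3D* share of 24.0%, a highest-to-lowest hashtag ratio of 9.78 for *CD3D* and 2.59 for *CD7*, a *CD3D* ratio of SPINK2-positive to C1Q-positive cells of 14.6, a *CD4* ratio of C1Q-positive to SPINK2-positive cells of 16.7, and 53.1% of *CD3D*-positive cells without the other chains. Thinning gave a share of 15.8% and 69.2% of positive cells without the other chains. *CD3D* was at 62.0 CPM with no limit on UMIs or genes and 67.3 CPM with stricter hashtag calls, where 52.6% were without the other chains. As a mean over cells, the *CD7* ratio was 1.32. With positives at 1 UMI the *CD3D* and *CD4* ratios between groups were 2.53 and 3.53, and with 10 UMIs the *CD3D* ratio was 8.06. In SPINK2-positive cells alone, chosen after the data were seen, the *CD3D* hashtag ratio was 3.90, and barcodes with no hashtag called, also added later, had a share of 27.3%. With 1 UMI in each hashtag as the minimum, 36.1% of genes passed 1.5-fold. Of the 5 genes most like *CD3D*, 3 were among the first 5 in SPINK2-positive cells and 3 after thinning, where *CD3G* was in 4.69% of cells, under the 5% needed to be ranked. In the settings run over all 4 hashtags *CD3D* was highest in 0255 and lowest in 0252 or 0253; *CD7* was lowest in 0253 but highest in 0254 with the 10% limit and in 0252 with stricter hashtag calls. Removing Scrublet doublets moved no value beyond its interval. With ELANE-positive cells at 3 UMIs (143 cells, added later) their *CD3D* level was 9.56 CPM. Depth limits *CD247*, *PTCRA* and *ZAP70*, with 103, 54 and 42 UMIs. No paired analysis was possible because the 2 libraries hold the same cells and the hashtags carry no replicate number.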
